A study of Bos taurus with 41 samples.

Results

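The comparison described here sets in vitro produced (IVP) against in vivo derived (IVD) bovine conceptus tissue after culture on endometrium. Its members were the conceptus libraries of the co-culture groups, 16 of the 41 libraries in the series, with 7 from IVP and 9 from IVD conceptus sections. IVD conceptuses were flushed from Angus-Holstein heifers bred by artificial insemination. IVP conceptuses were flushed from synchronized recipients of blastocysts made by fertilization of oocytes from abattoir ovaries with semen of the same Angus bull. Source of the dam and method of production therefore cannot be told apart. On gestation day 16 each conceptus was cut into sections, and a section was laid for 12 h on an explant of intercaruncular endometrium from a cyclic, unbred heifer. The other conceptus libraries, 8 IVD and 5 IVP sections held for the same 12 h without endometrium (mono-culture), served as the background of the same comparison.

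The 16 co-culture sections came from 11 conceptuses, 7 IVD and 4 IVP, and 5 of these gave 2 sections each (IVD26, IVD47, IVP23, IVP24 and IVP62b, named by type and conceptus number). Conceptuses IVP62a and IVP62b came from the same recipient, so the IVP group holds 3 recipients. The explants came from 7 uteri, and uteri 14, 39 and 70 carried sections of both types. Because sections of a conceptus are not independent, counts were summed per conceptus and 7 IVD were compared with 4 IVP conceptuses. The depth of an IVD library was 58583647 to 92005370 gene-assigned reads, and that of an IVP library 59495204 to 94695900. IVP co-culture replicate 1, a section of IVP24 on uterus 14, has a treatment label that names medium alone. It was grouped by its title, and results are also given without it.

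At this stage the conceptus is a filament of trophectoderm lined by hypoblast with a small embryonic disc. Ruminant trophectoderm secretes interferon tau, the signal of maternal recognition, together with trophoblast Kunitz domain proteins (TKDP) and pregnancy-associated glycoproteins (PAG). It takes up lipid and amino acids from the uterine fluid and proliferates rapidly as it elongates. All 14 listed trophectoderm markers were present, and their summed level was given in CPM (reads of a gene scaled to the TMM-corrected library size). It ran from 16000 to 59800 CPM (median 38500) in IVD and from 25600 to 113000 (median 73800) in IVP libraries. TKDP1, the highest of these markers, averaged 24700 CPM. The log2 fold change of IVP against IVD conceptuses was above 0 for all 14, and for 2 of 10 tested hypoblast and yolk sac endoderm markers, against 42.5% of all transcripts tested. Summed markers of endometrial stroma were at most 96.6 CPM in any library (7 of 9 markers analysed), against a median of 8340 CPM in 12 endometrial explants. Summed markers of endometrial epithelium (7 of 10) were closer to the tissue, which had a median of 353 CPM. They ran from 96.2 to 339 CPM (median 182) in IVD and from 98.5 to 242 CPM (median 176) in IVP libraries. MUC1, the highest of these markers, averaged 137 CPM over the co-culture sections, so the sums rested largely on that gene. The part of these epithelial markers in the results was not tested. Leukocyte markers (5 of 10) stayed at or below 13.7 CPM, against a median of 619 CPM in endometrium.

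No transcript passed a false discovery rate (FDR) of 0.05 between IVP and IVD conceptuses on endometrium in edgeR's quasi-likelihood test (0 of 15047, or 0%). The smallest adjusted p was 0.223. At an unadjusted p under 0.05 there were 1382 transcripts, 9.18% of those tested, with 745 higher (4.95%) and 637 lower (4.23%) in IVP. The median log2 fold change over all tested transcripts was -0.07. DESeq2, run on the same sums, called 122 of 14447 transcripts (0.844%), 89 higher and 33 lower in IVP. Without endometrium edgeR called 0 of 15265 transcripts and 474 (3.11%) lay under an unadjusted p of 0.05, and DESeq2 called 2 (MXRA5 and CYP3A28).

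By median distance, sections of the same conceptus lay closest among these libraries, but the ranges overlapped. Over the 1000 most variable transcripts the Euclidean distance between sections of the same conceptus had a median of 59.8 (5 pairs), against 91.9 for sections of the same type on other uteri (45 pairs) and 96.0 for sections of the other type on other uteri (56 pairs). Sections of IVP62a and IVP62b, of the same recipient, lay 64.1 apart in the median (2 pairs), within the range for the same conceptus (50.9 to 82.3). Sections on the same uterus but of the other type lay 74.5 apart in the median (7 pairs), and the 5 pairs of the same type on a shared uterus 75.6 apart. Principal component 1 (36.7% of variance) spread both types, from -47.1 to 65.0 over IVD and from -52.0 to 23.6 over IVP conceptuses, and did not separate them (exact permutation test over 330 assignments, two-sided p = 0.424). Principal component 2 (15.3%) averaged -12.2 in 7 IVD conceptuses (range -35.6 to 17.4) and 21.8 in 4 IVP conceptuses (range -4.61 to 46.7) (exact permutation p = 0.0333, 0.0999 after adjustment over 3 single values). Its highest scores belonged to IVP62a and IVP62b, from 28.2 to 46.7, while the sections of IVP23 and IVP24, from -13.0 to 16.8, lay within the range of the IVD sections. Without IVP62a the difference was 25.7 (exact permutation p = 0.1), and it also lost p under 0.05 without IVD8, IVD22, IVD47, IVD71 or IVP62b.

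**Figure D1:**
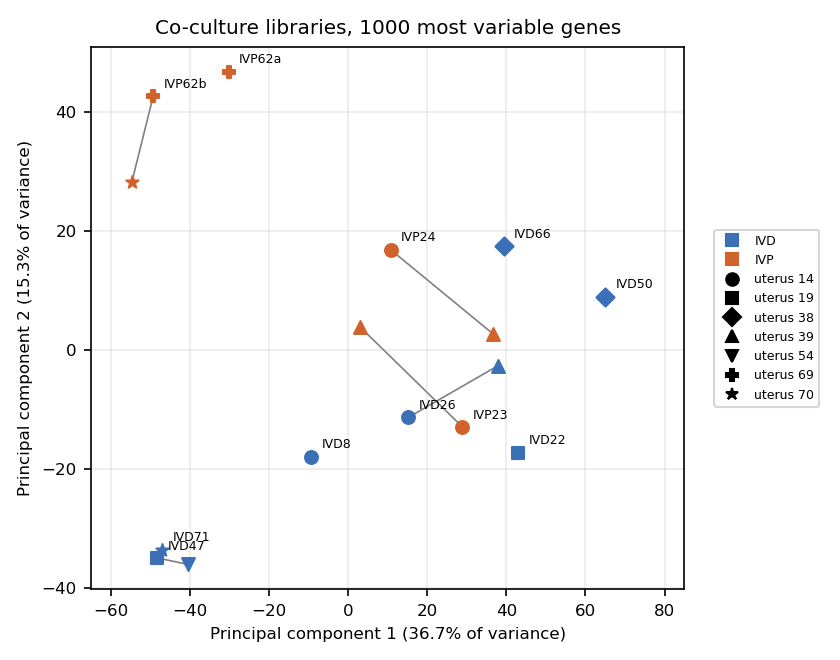
Principal components 1 and 2 of the 16 co-culture libraries on log2 CPM of the 1000 most variable transcripts, with a line joining the sections of a conceptus and a symbol for each uterus. The sections of IVP62a and IVP62b lie at 28.2 to 46.7 on component 2, above all IVD sections, and those of IVP23 and IVP24 lie among the IVD sections.

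The 12 smallest p-values on each side, restricted to named transcripts averaging a log2 CPM of 1 or more, gave 24 leading genes. None passed the FDR, and their adjusted p-values ran from 0.223 to 0.456 (edgeR). DESeq2 called 23 of the 24, and gave the 5.8S ribosomal RNA feature no adjusted p, so the call on these genes depends on the tool. With 29 sections of both cultures taken as independent, PNLDC1 (adjusted p = 0.0102), TUBB2A (adjusted p = 0.0332) and the 5.8S feature passed in edgeR. The 4 IVP conceptuses lay entirely on one side of the 7 IVD conceptuses for 19 of the 24, against 1.7% of all transcripts tested. The values that chose these genes are the same ones, so the 19 is a description. Over single libraries, 3 transcripts of 15047 (0.0199%) had no overlap between types, namely PNLDC1 and the unnamed ENSBTAG00000042335 (both lower in IVP) and ENSBTAG00000050859 (higher).

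DDX5, a DEAD-box RNA helicase that acts in transcription and splicing (ENSBTAG00000018423), had the smallest p. Its CPM were 282, 255, 437 and 403 in IVP23, IVP24, IVP62a and IVP62b, and ran from 127 over a median of 152 to 178 in the 7 IVD conceptuses. The IVP conceptuses all lay above, and the log2 fold change was 1.18 (SE 0.17, adjusted p = 0.223, edgeR). Single sections overlapped, however, with 142 to 792 CPM in IVP and 128 to 225 CPM in IVD. CYP26A1, which degrades retinoic acid, had 14.2, 13.2, 24.0 and 34.6 CPM in the same 4 IVP conceptuses and 2.41 to 7.11 CPM in IVD conceptuses (median 4.45). It had the second smallest p, with an average IVP level 4.87 times that of IVD (SE 0.36 on the log2 scale, adjusted p = 0.223, edgeR). TUBB2A, a beta-tubulin, had 171, 154, 133 and 169 CPM in IVP and 63.9 to 110 CPM in IVD conceptuses (median 72.0), a log2 fold change of 0.99 (SE 0.16).

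The endoplasmic reticulum chaperone calreticulin (CALR) had 2350, 1920, 2600 and 2380 CPM in the IVP conceptuses and 734 to 1470 CPM in the IVD conceptuses (median 1020). Its log2 fold change was 1.09 (SE 0.20), so the average IVP level was 2.13 times that of IVD. The HSP70 co-chaperone BAG1 had 80.0 to 157 CPM in IVP against 45.6 to 60.8 CPM in IVD conceptuses. KRT7, an epithelial keratin of trophoblast, had 185, 113, 327 and 158 CPM in IVP and 44.3 to 91.3 CPM in IVD, a log2 fold change of 1.46 (SE 0.27). The other leading genes on this side were IER5L (log2 fold change 1.06), HACD3, an elongase-complex dehydratase of very long chain fatty acids (0.85), GMPPA, a regulator of GDP-mannose synthesis (0.76), the general transcription factor subunit GTF2E2 (0.61) and the lipid hydrolase ABHD16A (0.54), each without overlap between conceptuses. A 5.8S ribosomal RNA feature was of another kind, with 4570 CPM in IVP23, 151 in IVP62a, 0.726 in IVP24 and 0.637 in IVP62b, and 0.556 to 2.23 in IVD conceptuses. Its groups overlapped, and its log2 fold change of 10.08 rested on IVP23 and IVP62a. In IVP23 a single section held 8480 CPM and the other 1.45 CPM, which is within the IVD sections.

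On the lower side, APLF, a DNA end-joining factor, had 3.58, 3.08, 3.21 and 2.92 CPM in the IVP conceptuses and 5.09 to 6.64 CPM in the IVD conceptuses (median 5.98). The log2 fold change was -0.89 (SE 0.16, adjusted p = 0.296, edgeR). PNLDC1, the exonuclease that trims the 3′ ends of piRNAs in mammals, had 1.17 to 2.21 CPM in the 4 IVP conceptuses and 4.06 to 19.6 CPM in IVD conceptuses (median 5.63). Its sections did not overlap either, with at most 2.78 CPM in 7 IVP and at least 3.99 CPM in 9 IVD libraries, and the log2 fold change was -2.43 (SE 0.47, adjusted p = 0.296, edgeR). MXRA5, a matrix-remodelling protein, had 1.07, 0.416, 1.80 and 0.559 CPM in IVP and 2.13 to 6.31 CPM in IVD conceptuses, an average IVP level 0.25 times that of IVD (SE 0.48 on the log2 scale). The p53-induced ribonucleotide reductase subunit RRM2B (-0.87) and the X-linked histone demethylase KDM5C (-0.49) were also lower without overlap, as were KIAA0232 (-0.55), NKAP (-0.61) and C29H11orf54 (-0.94). The acyl-CoA synthetase ACSL1 (-1.02), the peroxisomal hydrolase NUDT7 (-0.72), the splicing-complex assembly factor GEMIN8 (-0.56) and INSIG2 (-0.59), a brake on sterol synthesis, overlapped in 1 or more conceptuses.

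**Figure D2:**
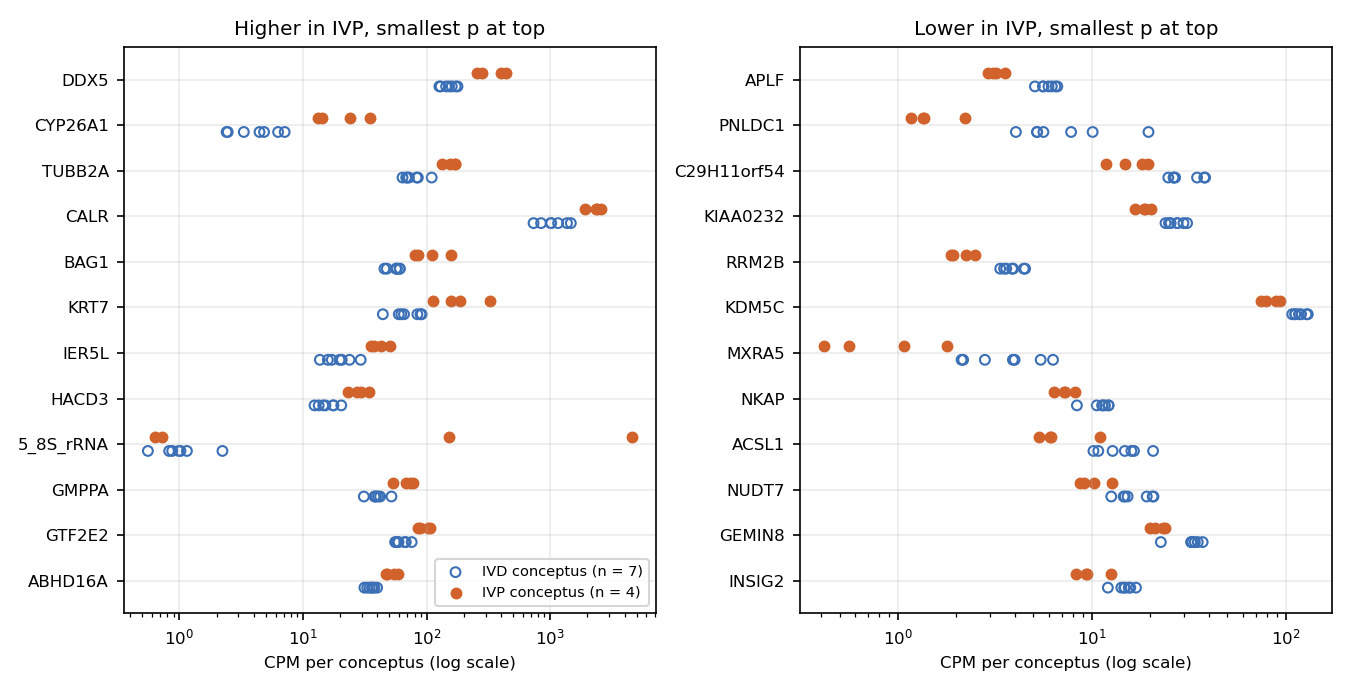
CPM per conceptus, on a log scale, for the 12 leading genes on each side, with 7 IVD (open) and 4 IVP (filled) conceptuses. IVP and IVD values do not overlap for 19 of the 24, and the 5.8S rRNA feature is carried by IVP23 and IVP62a.

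Several of these genes also differed between sections of the same conceptus. The TMM factor, which corrects a library for its composition, differed between the 2 sections of each of the 5 conceptuses, for example -0.31 and 0.21 on the log2 scale for the sections of IVP23 on uteri 39 and 14. In IVP23 and in IVP24 all 11 leading genes on the higher side (the 5.8S feature left out) were higher in the section with the lower factor. The median log2 ratio between the sections was 1.57 in IVP23 and 1.30 in IVP24. The same held for 11 of 11 in IVD26 (0.61), 9 of 11 in IVD47 (0.33) and 9 of 11 in IVP62b (1.26), and over all 15047 transcripts the median ratios ran from -0.12 to -0.02. The lower-side genes were mirrored, with 10 to 12 of 12 lower in that section. Over all 15047 transcripts 6727 to 7304 were higher and 7685 to 8301 lower there.

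DDX5 shows the spread. The sections of IVP23 on uterus 14 and of IVP24 on uterus 39 held 142 and 143 CPM, which is within the IVD sections, whereas their partners held 517 and 419 CPM. APLF followed the opposite course, with 5.10 and 4.43 CPM in those 2 sections and 2.08 and 1.80 CPM in their partners. The factor itself averaged 0.0878 ± 0.119 (SD, n = 7) on the log2 scale in IVD and -0.063 ± 0.122 (SD, n = 4) in IVP conceptuses (exact permutation p = 0.0788, adjusted 0.118). With the factor as a covariate all 24 leading genes kept their direction and an unadjusted p under 0.05, while transcripts under that p fell in number from 1382 to 701 and the smallest adjusted p was 0.999 (edgeR). Leaving out IVP co-culture replicate 1 or replicate 4, the low-factor sections of IVP24 and IVP23, gave 745 and 738 such transcripts, and leaving out replicate 2 or 3 gave 2252 and 2153. Replicate 5, the section of IVP62a, gave 740 when left out. DDX5 passed the FDR only without replicate 3 (edgeR), and without replicate 1, the library with the differing label, all 24 leading genes kept their direction and 22 an unadjusted p under 0.05. The 24 were chosen on these same counts, so their agreement in the fits with the covariate or without a replicate is a description. The part of composition in the result was otherwise not tested.

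Protein folding genes made up the lists with the most members on the higher side. Of 35 tested genes of endoplasmic reticulum folding, 12 were higher and 0 lower at an unadjusted p under 0.05, with a median log2 fold change of 0.40, beside 4.95% higher and 4.23% lower over all transcripts tested. Besides CALR, the disulfide isomerase PDIA3 had 1380 to 1770 CPM in IVP and 842 to 1270 CPM in IVD conceptuses (log2 fold change 0.53, SE 0.16), and CRELD1 had 24.2 to 30.4 against 13.3 to 24.5 CPM (0.49, SE 0.17). Of 38 cytosolic and mitochondrial chaperones, 11 were higher and 0 lower, with a median of 0.27. HSP90AA1, the inducible HSP90, had 3000, 2970, 2550 and 2250 CPM in IVP against 932 to 2140 CPM in IVD conceptuses (0.84, SE 0.25), and the HSP90 co-chaperone CHORDC1 had 54.4 to 96.2 against 29.9 to 56.3 CPM (0.72, SE 0.20). None of these members passed the FDR. Without recipient 62 the medians were 0.38 and 0.35, and 7 and 6 members of the 2 lists lay under that p on the higher side, against 1.1% of all transcripts. With the TMM factor as a covariate 4 folding genes (median 0.24) and 7 chaperones (median 0.26) did so, against 398 of all 15047 transcripts. Between sections of a conceptus, 25 to 33 of the 35 folding genes and 30 to 34 of the 38 chaperones were higher in the section with the lower TMM factor. Of all 15047 transcripts, 6727 to 7304 were higher there.

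Of 38 proteasome genes tested, 5 were higher (4.95% over all transcripts) and 2 lower, a number near the 4.23% over all transcripts, with a median of 0.18. The regulatory-particle subunits PSMD1 (140 to 170 CPM in IVP, 86.3 to 133 CPM in IVD, log2 fold change 0.50, SE 0.14) and PSMD14 (123 to 139 against 83.8 to 120 CPM, 0.39, SE 0.12) were without overlap. The 2 lower members were the immunoproteasome subunits PSMB8 (log2 fold change -1.50) and PSMB9, which had 0.366 to 0.912 CPM in IVP and 0.777 to 2.00 CPM in IVD conceptuses (-1.27, SE 0.36). Both are at low levels, and PSMB8 was chosen after its values were seen. PSMB8 and PSMB9 were also among the 3 lower members of the list of MHC class I and presentation, and CALR and PDIA3, which load class I molecules in the endoplasmic reticulum, were the 2 higher members of 19. The median of that list was -0.49, but -0.05 with the TMM factor as a covariate and 0.15 on uteri 14, 39 and 70.

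Energy and lipid genes followed. Of 77 nuclear-encoded respiratory chain genes, 9 were higher and 0 lower, beside 4.95% higher and 4.23% lower over all transcripts tested. A log2 fold change above 0 was found for 65 of them, against 42.5% of all transcripts tested. ATP5MC1, a subunit of the ATP synthase ring, had 83.9 to 119 CPM in IVP and 38.5 to 85.3 CPM in IVD conceptuses (log2 fold change 0.81, SE 0.21), SDHA of complex II had 179 to 249 against 131 to 213 CPM (0.48, SE 0.16) and ATP5F1B 681 to 1130 against 479 to 782 CPM (0.58, SE 0.20). The list median moved from 0.18 to 0.03 without recipient 62 and to 0.01 with the TMM factor as a covariate. In the low-factor section of each of the 5 conceptuses 75 or 76 of the 77 were higher, against 6727 to 7304 of all 15047 transcripts. In the 33 genes of cholesterol and fatty acid synthesis, 5 were higher and 1 lower, beside the same 4.95% and 4.23% over all transcripts. INSIG1, a regulator of the pathway, had 47.5 and 55.9 CPM in IVP23 and IVP24, 200 and 332 CPM in IVP62a and IVP62b and 12.3 to 67.0 CPM in IVD conceptuses. CYP51A1, lanosterol demethylase, had 152, 81.3, 339 and 358 CPM in IVP against 34.5 to 148 CPM in IVD (1.60, SE 0.45). For both the highest values were those of recipient 62, and without it the log2 fold changes were 0.24 and 0.60.

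Among 34 genes of PPAR signalling, lipid uptake and storage, 0 were higher and 6 lower, with a median of -0.10. Over all transcripts tested 4.95% were higher and 4.23% lower. Beside ACSL1, the muscle-type carnitine palmitoyltransferase CPT1B had 0.349 to 1.28 CPM in IVP and 1.32 to 3.42 CPM in IVD conceptuses (log2 fold change -1.11, SE 0.40), and the lipase inhibitor ANGPTL4 had 0.162 to 0.606 against 0.252 to 5.18 CPM (-2.10, SE 0.79). The fatty acid transporter CD36, chosen after its values were seen, had the lowest log2 fold change of the list, -5.22. That value rests on IVD71, at 27.1 CPM, and IVD8, at a similar level, because the other 5 IVD conceptuses had at most 0.32 CPM and the IVP conceptuses 0.0542 to 0.234 CPM. Of 44 genes of glycolysis and the low-oxygen response, 0 were under an unadjusted p of 0.05.

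Cell cycle genes had 9 of 67 members higher, against 4.95% of all transcripts, and 2 lower, against 4.23%, with a median of 0.08. Cyclin A2 (CCNA2) had 60.9 to 71.6 CPM in IVP and 43.5 to 53.2 CPM in IVD conceptuses (log2 fold change 0.39, SE 0.11), E2F1 8.86 to 14.1 against 4.76 to 10.4 CPM (0.79, SE 0.24), and the replication licensing factor CDC6 5.70 to 14.5 against 4.51 to 8.34 CPM (0.87, SE 0.27). CDC20, an activator of the anaphase-promoting complex that the study singled out on these samples, had 98.4, 95.3, 107 and 122 CPM in IVP and 60.5 to 97.3 CPM in IVD (0.45, SE 0.15, adjusted p = 0.458, edgeR). The immediate early genes had 4 of 27 higher and 0 lower. FOS had 46.1, 41.9, 62.2 and 75.4 CPM in IVP against 11.1 to 34.5 CPM in IVD conceptuses (1.14, SE 0.28), EGR1 20.7 to 45.9 against 4.42 to 21.8 CPM (1.38, SE 0.47) and IER3 196 to 346 against 91.4 to 209 CPM (0.76, SE 0.24).

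**Figure D3:**
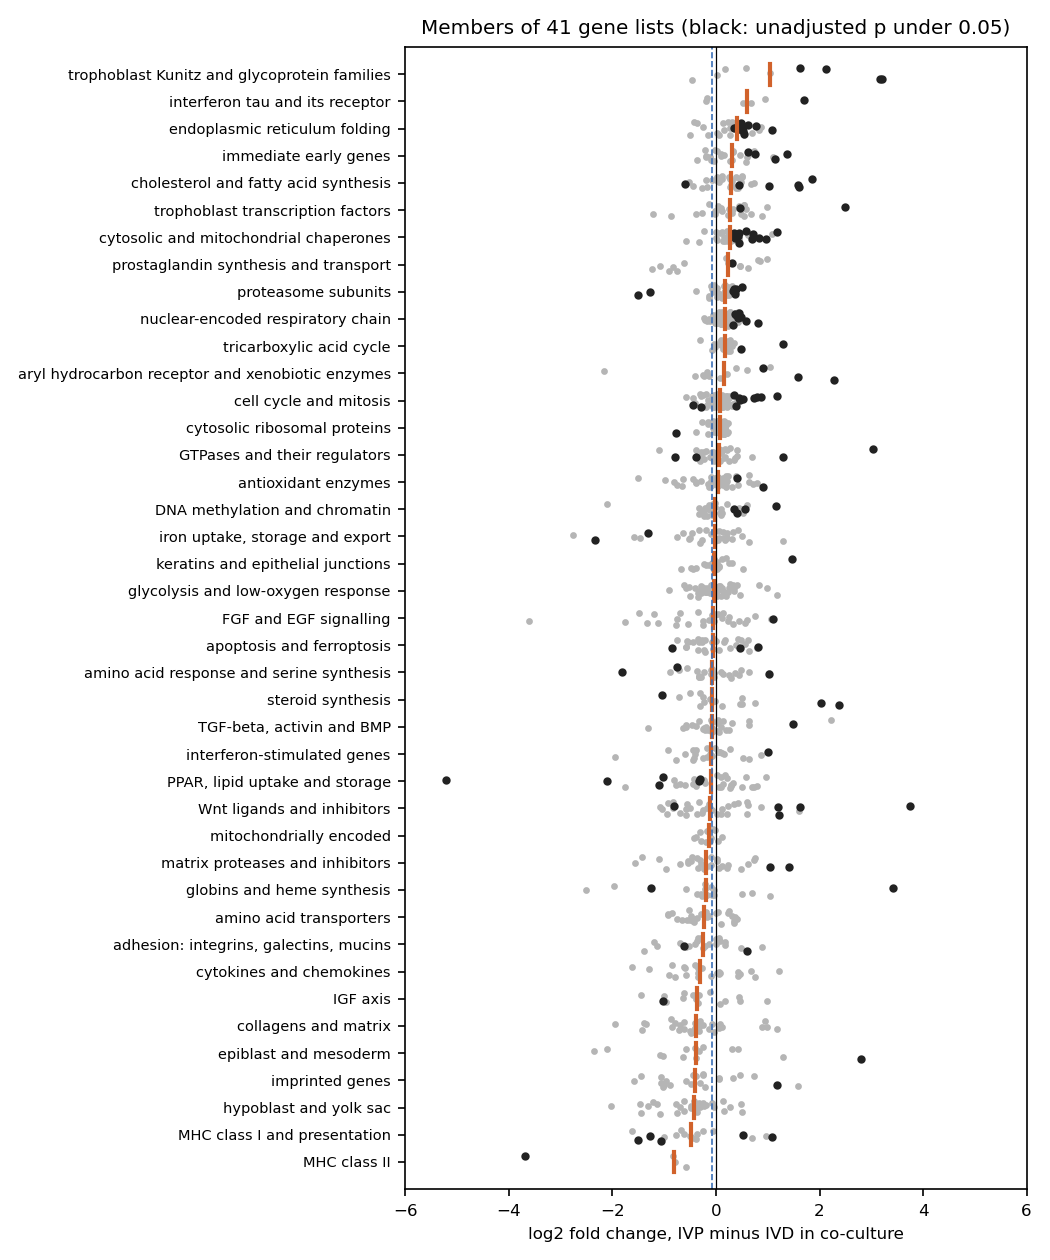
Log2 fold change, IVP minus IVD on endometrium, of each tested member of the 41 gene lists, with members under an unadjusted p of 0.05 in black, the list median as an orange bar and the median of all transcripts (-0.07) as a dashed line. Black members of the 2 protein folding lists all lie above 0, 12 of 35 and 11 of 38, beside 4.95% higher over all transcripts.

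The secreted products of trophectoderm gave the largest list median, 1.05 over 9 tested TKDP and PAG genes. At an unadjusted p under 0.05, 4 were higher and 0 lower, beside 4.95% and 4.23% over all transcripts tested. TKDP1, the most abundant of the trophectoderm markers, had 20600 and 20900 CPM in IVP23 and IVP24, 47100 and 55500 CPM in IVP62a and IVP62b, and 1530 to 19500 CPM in IVD conceptuses (median 14400). Its log2 fold change was 1.63 (SE 0.57, adjusted p = 0.475, edgeR). TKDP4 had 98.9, 1660, 11600 and 8240 CPM in IVP against 59.0 to 3040 CPM in IVD conceptuses (3.16, SE 1.22). PAG12 had 3.47, 141, 1180 and 315 CPM against 1.42 to 210 CPM (3.21, SE 1.30). For TKDP4 and PAG12 IVP62a and IVP62b alone lay above the IVD range, and IVP23 was near its lower end. Without recipient 62 the log2 fold changes of the 3 genes were 0.82, 0.55 and 0.71, the list median was 0.31 and 0 members stayed under that p. On uteri 14, 39 and 70 alone the list median was -0.05, while TKDP1, TKDP4 and PAG12 had log2 fold changes of 0.96, 3.38 and 2.78.

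Interferon tau genes, which the study also singled out, did not pass the test either. IFNT2 had 111, 110, 439 and 208 CPM in IVP and 11.7 to 142 CPM in IVD conceptuses (log2 fold change 1.70, SE 0.65, adjusted p = 0.496, edgeR), and IFNT3 904, 800, 2200 and 1790 CPM against 73.0 to 1190 CPM (0.94, SE 0.61). IFNT had a log2 fold change of 0.67 (SE 0.65) and IFN-TAU, at most 0.384 CPM in any conceptus, 0.53 (SE 0.95). Without recipient 62 those of IFNT2 and IFNT3 were 0.73 and 0.19. Reads of such near-identical copies may be split between genes in a way the sources used here do not give, and this applies to TKDP and PAG genes too. Of 27 interferon-stimulated genes in the conceptus, only TRIM25 lay under an unadjusted p of 0.05, a number near the 4.95% of all transcripts that were higher. TRIM25 had 124 to 287 CPM in IVP and 42.3 to 175 CPM in IVD (1.00, SE 0.38). RSAD2 had a log2 fold change of -1.95 (SE 1.03) and IRF9 of -0.41 (SE 0.26).

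**Figure D4:**
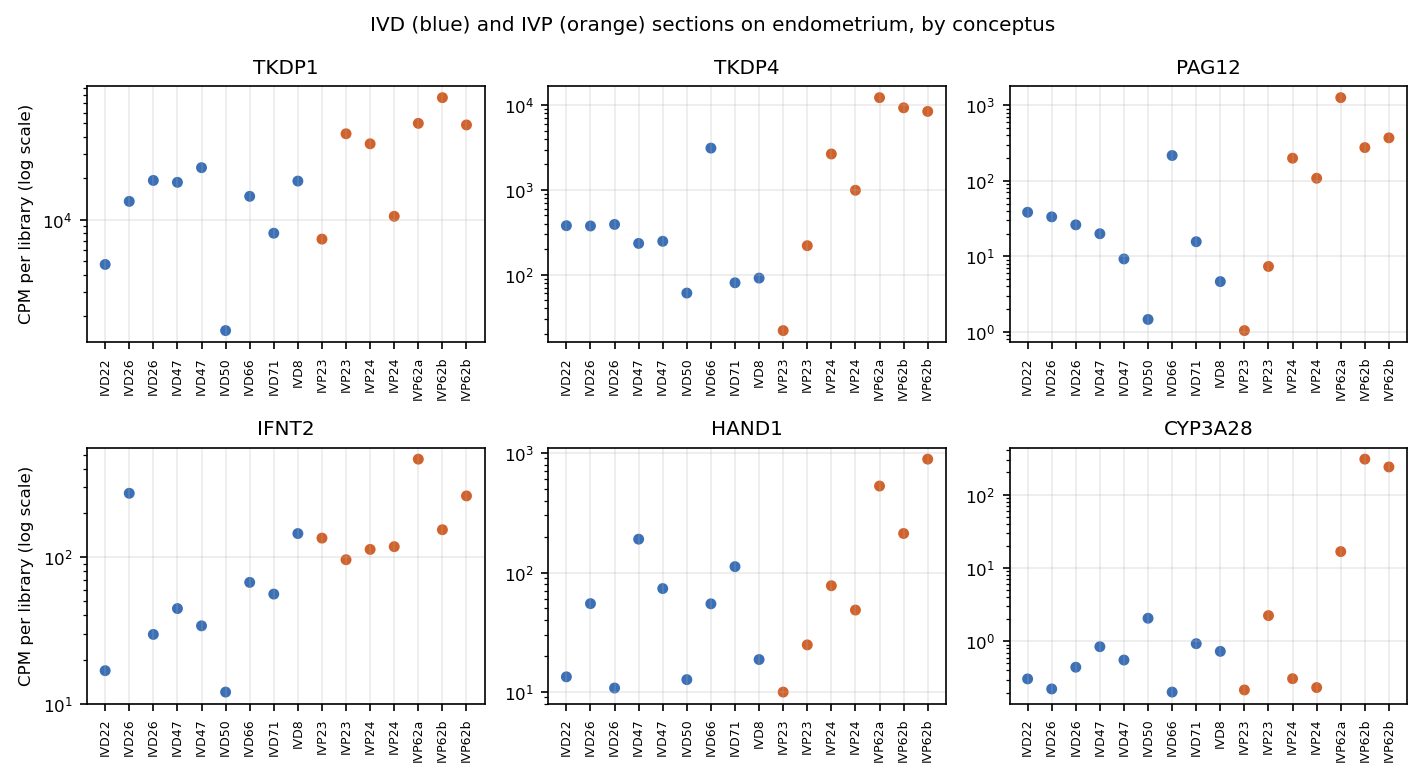
CPM per library, on a log scale, of 6 genes in the 9 IVD and 7 IVP co-culture sections, ordered by conceptus. The 3 sections of IVP62a and IVP62b hold the highest TKDP4 values, up to 12300 CPM against at most 3120 CPM in IVD, and the highest CYP3A28 values.

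Recipient 62 set apart other genes as well. HAND1, a basic helix-loop-helix factor of trophoblast and lateral mesoderm, had 15.2, 58.6, 497 and 601 CPM in IVP23, IVP24, IVP62a and IVP62b and 12.4 to 131 CPM in IVD conceptuses. Its log2 fold change of 2.49 (SE 0.91) was -0.51 without recipient 62. The epithelial factor OVOL1 had 28.4 to 59.7 CPM in IVP and 24.2 to 34.8 CPM in IVD (0.46, SE 0.21), and its log2 fold change was 0.03 without that recipient. ID1, also in the list of trophoblast transcription factors, had -1.21 (SE 0.74), and -1.17 without recipient 62. The cytochrome CYP3A28 and the nucleoside transporter SLC28A3 were chosen after their values were seen. CYP3A28 had 1.00, 0.255, 15.7 and 246 CPM against 0.198 to 2.00 CPM in IVD, and SLC28A3 1.36, 2.38, 39.9 and 20.8 against 0.769 to 2.47 CPM. Without recipient 62 their log2 fold changes went from 6.51 to -0.20 and from 3.52 to 0.41. ALAS2, the erythroid heme synthesis enzyme, had 0.561, 0.555, 50.8 and 14.2 CPM in IVP and 0.252 to 5.65 CPM in IVD conceptuses, and its log2 fold change of 3.41 (SE 1.15) became -1.48. The cathepsins CTSL (497, 636, 1780 and 1240 CPM against 95.8 to 621 CPM, log2 fold change 1.41, SE 0.47) and CTSB (365, 520, 1470 and 1250 CPM against 267 to 606 CPM, 1.05, SE 0.38) were the 2 higher members of 31 matrix proteases and inhibitors. That number is near the 4.95% of all transcripts that were higher. CST3 had a log2 fold change of 0.76 (SE 0.39).

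Left without both conceptuses of that recipient, the comparison of 7 IVD with 2 IVP conceptuses had 0 transcripts past the FDR and 288 under an unadjusted p of 0.05, 172 higher (1.1% of 15646) and 116 lower (0.741%). This alternative was chosen after seeing the data. All 24 leading genes kept their direction in it, and 22 kept an unadjusted p under 0.05. On uteri 14, 39 and 70 alone, with 4 IVD and 5 IVP libraries taken as independent, all 24 again kept their direction and 8 an unadjusted p under 0.05. The 24 were chosen on counts that include these libraries, so their agreement in both fits is a description.

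Genes of iron handling and hemoglobin, part of them singled out by the study, did not pass the test of IVP against IVD on endometrium. The study named HBA and HBM from co-culture against mono-culture of IVD tissue, a comparison not made here. SLC40A1 (ferroportin), the cellular iron exporter, had 23.7, 32.3, 9.40 and 12.1 CPM in IVP and 16.5 to 95.4 CPM in IVD conceptuses (median 46.4). IVP62a and IVP62b lay below the IVD range, IVP23 and IVP24 within it, and the log2 fold change was -1.32 (SE 0.48, adjusted p = 0.486, edgeR). The hemoglobin transcripts HBA (11.1, 4.99, 1.38 and 11.2 CPM in IVP, 1.10 to 56.9 CPM in IVD) and HBM (0.746, 0.172, 0.0135 and 0.124 against 0.0252 to 3.74 CPM) overlapped between types, with log2 fold changes of -1.97 (SE 0.99) and -2.51 (SE 1.18). HBQ1 had -1.26 (SE 0.54) and the heme synthesis enzyme ALAD -0.58 (SE 0.27). Lactoferrin (LTF), at most 0.326 CPM in any conceptus, had -2.34 (SE 0.78) and STEAP3 -1.59 (SE 0.79). Of 32 iron genes 2 were lower and 0 higher at an unadjusted p under 0.05, near the 4.23% of all transcripts that were lower, with a median of -0.02. In the 19 globin and heme genes 1 was higher and 1 lower, near the 4.95% and 4.23% over all transcripts.

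Genes of immune presentation and adhesion had wide spreads. The class II gene BLA-DQB had 8.85 CPM in IVP23, 0.205 in IVP24, 0.0271 in IVP62a and 0.109 in IVP62b, and 1.90 to 6.17 CPM in IVD conceptuses. One IVP conceptus thus lay above and 3 below the IVD range, and the log2 fold change was -0.80 (SE 1.13, adjusted p = 0.833, edgeR). The study named BLA-DQB from co-culture against mono-culture of IVP tissue, a comparison not made here. BOLA-DQB was at most 0.292 CPM in any conceptus and had no read in IVP62a and IVP62b (log2 fold change -3.69, adjusted p = 0.458, edgeR), while its lowest IVD conceptus had no read either. The invariant chain CD74 had -0.83 (SE 0.46) and BOLA-DMA -0.57 (SE 0.58). Galectin-1 (LGALS1), singled out by the study as well, had 214, 303, 158 and 200 CPM in IVP and 229 to 534 CPM in IVD conceptuses (-0.62, SE 0.25, adjusted p = 0.515, edgeR). Syndecan-4 (SDC4) had 321 to 563 against 208 to 391 CPM (0.60, SE 0.22) and the integrin ITGA6 0.89 (SE 0.43).

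Other lists had few members under an unadjusted p of 0.05, beside 4.95% higher and 4.23% lower over all transcripts tested. Several counts, such as 1 lower of 36 Wnt genes and 1 higher of 23 keratin and junction genes, were near those shares. In the 29 hypoblast and yolk sac genes 0 reached it. A log2 fold change above 0 was found for 5 of them, against 42.5% of all transcripts, and the median was -0.43, but it was 0.06 without recipient 62, 0.06 with the TMM factor as a covariate and 0.44 on uteri 14, 39 and 70. APOA4 had -2.03 (SE 1.33) and DAB2 0.51 (SE 0.34). Steroid synthesis (17 genes) had 2 higher, steroid sulfatase STS (0.129, 1.90, 1.60 and 2.11 CPM in IVP against 0.0882 to 0.576 CPM in IVD, log2 fold change 2.38, SE 0.67) and aromatase CYP19A1 (2.02, SE 0.86), and 1 lower, CYP21A2 (-1.05, SE 0.44). Without recipient 62 the log2 fold change of CYP19A1 was 0.21, and CYP21A2 was at most 0.239 CPM in any conceptus. In the amino acid response and serine synthesis (27 genes) cystathionine gamma-lyase CTH was higher (10.8 to 16.9 against 2.64 to 9.77 CPM, 1.02, SE 0.28), and the serine synthesis enzyme PSAT1 (-1.81, SE 0.66) and ALDH1L2 (-0.75, SE 0.32) were lower. Chromatin and DNA methylation genes (31) had 4 higher, among them GADD45B (76.3 to 87.0 against 8.87 to 58.8 CPM, 1.16, SE 0.37), the histone methyltransferase EZH2 (0.41, SE 0.16) and MBD2 (0.56, SE 0.23). Wnt genes (36) had 4 higher and 1 lower, with WNT7A (0.227 to 4.96 CPM in IVD, 2.98 to 12.9 CPM in IVP), WNT7B (1.21, SE 0.52) and WNT16 (3.75, SE 1.27), the last carried by IVP62a at 9.27 CPM against at most 0.678 CPM in IVD conceptuses. KRT7 was the 1 higher of 23 keratin and junction genes, where OCLN had -0.38 (SE 0.20) and CLDN3 -0.68 (SE 0.47). Cytosolic ribosomal protein genes had 0 of 80 higher and 1 lower.

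The leading differences were compared with those of sections held without endometrium. In mono-culture 22 of the 24 leading genes had the same direction and 6 an unadjusted p under 0.05. DDX5 had a log2 fold change of -0.08 (SE 0.14) there, with 192 to 248 CPM in 5 IVP and 177 to 352 CPM in 8 IVD sections, and CYP26A1 -0.11 (SE 1.02). CALR had 0.53 (SE 0.19), PNLDC1 -1.19 (SE 0.36) and MXRA5 -2.07 (SE 0.48), close to its value on endometrium. The difference between the cultures was tested itself, in the 11 conceptuses present in both with the conceptus as a block. It passed the FDR for 0 of 16142 transcripts (edgeR), 580 (3.59%) lay under an unadjusted p of 0.05 and DESeq2 called 3, with DDX5 and HACD3 among them. DDX5 had the smallest p, with a larger excess in IVP on endometrium than without (SE 0.20 on the log2 scale, adjusted p = 0.735, edgeR). HACD3 followed with 0.82 (SE 0.17), and ACAT2, a cytosolic thiolase of sterol synthesis, had 1.08. SPDYC (-1.39) and RRAD (-1.45) were among the smallest p-values on the other side. Of the 24 leading genes 13 had an unadjusted p under 0.05 for this difference, but they were chosen from one of its arms.

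**Figure D5:**
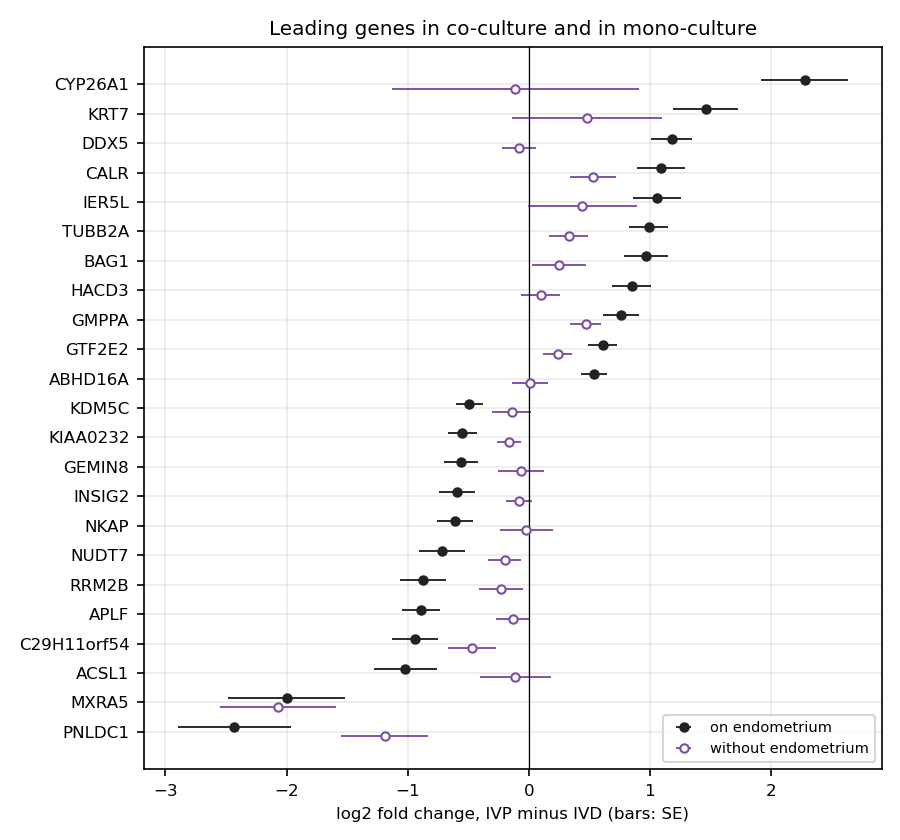
Log2 fold change, IVP minus IVD, with SE, of 23 leading genes (the 5.8S rRNA feature left out) on endometrium (filled, 7 against 4 conceptuses) and without it (open, 8 against 5 sections). DDX5 lies at 1.18 on endometrium and -0.08 without, while MXRA5 lies near -2 in both, at -2.07 without.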

How the data were processed

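RNA-seq counts of 29 conceptus libraries were used. Per the labels and methods, the authors prepared poly(A)-enriched stranded libraries, trimmed reads with Trimmomatic, aligned them to ARS-UCD 1.2 with HISAT2 (STAR for endometrium) and deposited raw counts per gene from featureCounts. Versions and strand setting are not given in the sources used here. The deposited counts cover 16149 genes, 2031 without a symbol, and their lowest mean count was 2.48, so low genes had been removed. No sequences were used, and 28 endometrial columns that match no sample were not used. No pair of co-culture libraries of the same type was a copy (lowest chi-square per degree of freedom 119). Other pairs were not checked.

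Groups followed the titles. Counts were summed per conceptus, because sections share one, filtered with filterByExpr (minimum count 10, total 15), scaled by TMM and tested with edgeR 4.0.16 quasi-likelihood in R 4.3.3 (FDR 0.05, Benjamini-Hochberg). CPM are TMM-scaled, a prior count of 1 entered each log2 CPM, and ratios between sections added 0.1 CPM. Mono-culture was fitted on its 13 libraries. DESeq2 1.42.0 and limma 3.58.1 were alternatives, among other normalizations, filters, units, blocks and left-out libraries. In the fit on sums, p-values measure the spread between these conceptuses, with IVP62a and IVP62b of the same recipient taken as separate. In fits on single sections they measure the spread between sections. All conceptus libraries carry 1 batch label.

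Named genes were the 12 smallest p on each side (mean log2 CPM at least 1, with symbol), the 3 smallest p of each list described, genes the study singled out and the 6 smallest p for the difference between cultures. Some genes that this rule names are not reported here. The lists (41) and members were chosen with earlier results of these data known.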

Additional observations from a re-analysis of the deposited data

Results flagged for a closer look

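Within groups of 7 IVD or 4 IVP conceptuses on endometrium, 9 of the 204 groups of values examined had a conceptus that stood far from the rest by Dixon's criterion on log2 CPM, which chance meets in about 1 of 20 groups, so the number is near what chance would give. Among IVD conceptuses, IVD50 was low for GADD45B (8.87 CPM), INSIG1 (12.3 CPM) and WNT7B (0.731 CPM), IVD66 was low for GEMIN8 (22.7 CPM) and NKAP (8.38 CPM), and IVD71 was low for CTH (2.64 CPM). Among IVP conceptuses, IVP23 was low for STS (0.129 CPM), IVP62a was low for CD36 (0.0542 CPM) and RSAD2 had no read in IVP62b (0.0 CPM).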

How the results depend on the processing

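Counts of transcripts past the FDR on endometrium, 0 as reported, were 122 with DESeq2, 15 with 24 conceptus sums of 4 groups in one fit, 4 with 29 sections taken as independent, 1 with the uterus as a block, 1 with RUVr (1 factor of unwanted variation) and 0 to 1 with single libraries or conceptuses left out. Counts at an unadjusted p under 0.05, 1382 as reported, were 2536 with RUVr, 2170 with 29 sections, 741 summed per recipient, 701 with the TMM factor as a covariate, 354 on uteri 14, 39 and 70, 320 with the uterus as a block and 288 without recipient 62, the last chosen after seeing the data. They ran from 738 to 2252 in the left-out fits. The fits with the uterus as a block and on uteri 14, 39 and 70 used single sections, so sections of the same conceptus counted as independent. Without endometrium DESeq2 called 2, and the 474 became 245 to 815 with libraries left out. For the difference between cultures DESeq2 called 3, and the 580 became 307 without the conceptus block and 394 to 889 with conceptuses left out. The difference in log2 TMM factor ran from -0.192 to -0.0946, that in component 1 from -32.6 to -7.35 and that in component 2 from 25.7 to 42.8 with conceptuses left out.

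The replicate numbers name sections of different conceptuses and pair nothing. With a replicate block, fitted on single sections, 0 transcripts passed the FDR and 1446 lay under an unadjusted p of 0.05 on endometrium, and 159 without endometrium.

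Log2 fold changes of 10 named genes changed sign somewhere. Without recipient 62 ALAS2 was -1.48, BLA-DQB 0.17, CYP3A28 -0.20, HAND1 -0.51, IFN-TAU -0.91 and IFNT -0.07. With the uterus as a block APOA4 was 0.55, ID1 0.43 and RRAD 0.24. On uteri 14, 39 and 70 APOA4 was 0.55, ID1 0.60, IFNT -0.28, IFNT3 -0.0018 and RRAD 0.11. With RUVr APOA4 was 0.06, and with the TMM factor as a covariate IFN-TAU was -0.19 and RRAD 0.19. The cause was not tested. The IVP group holds 4 conceptuses of 3 recipients, and values of genes below 1 CPM rest on fewer reads than those of abundant genes.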
